A study of Caenorhabditis elegans with 39 samples.

Results

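The mir-240 and mir-786 cluster of Caenorhabditis elegans holds 2 microRNA (miRNA) hairpins that lie side by side, and each hairpin is cut into a 5p and a 3p arm. The arm entries of both hairpins were taken by name from a table of read counts per mature miRNA. They were 4 of 437 entries: miR-240-5p, miR-240-3p, miR-786-5p and miR-786-3p. All 4 passed the filter on low counts, which kept 243 entries for testing.

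Small RNA libraries were made from whole-body total RNA of larvae of 3 genotypes. Alg1E and Alg1A are given in the labels as mutants of alg-1 in the N2 background, without a meaning for the last letter, and N2 is the standard wild type strain. The gene alg-1 encodes an Argonaute, and the series title names the phosphorylation of this protein and its binding of miRNAs. Each genotype had 13 libraries, 1 for each hour from 18 to 30 h, counted from the plating of synchronized L1 (first-stage) larvae that were kept at 25 degrees. The labels give no culture, plate or batch, and each p-value here rests on how single libraries scatter around a genotype and an hour, which can be technical scatter.

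An Argonaute binds 1 arm of a miRNA duplex as the guide, which pairs with target mRNAs, while the other arm is usually released and degraded. In C. elegans, miR-786 is known for its part in the defecation rhythm, where it acts in the intestine through the fatty acid elongase gene elo-2, and animals without the cluster have long and irregular defecation cycles. The mir-240 and mir-786 genes are also known to be expressed in the somatic gonad and to affect fertility.

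The 2 hairpins lie on the + strand of chromosome X (build WBcel235, the same assembly as ce11). The mir-240 hairpin spans bases 7882622 to 7882718, with the 5p arm at 7882643 to 7882665 and the 3p arm at 7882682 to 7882703. The mir-786 hairpin spans bases 7882751 to 7882840, with the 5p arm at 7882766 to 7882789 and the 3p arm at 7882804 to 7882826. Only 32 bases separate the hairpins. Both are intergenic in the annotation: the protein-coding gene C39D10.8 ends 1673 bases before them and pcyt-2.2 starts 1453 bases after them. A further annotated hairpin, mir-8203, lies on the opposite strand inside mir-786, and its arms had 27 (miR-8203-3p) and 9 (miR-8203-5p) reads over all 39 libraries. The table counts the arms of both hairpins separately, but the use of strand is not given in the sources used here, so how reads from their overlap were assigned is unknown.

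The libraries held a median of 2105600 miRNA reads in Alg1E (range 1146950 to 4668890), 2892330 in Alg1A (1245380 to 4472520) and 3529330 in N2 (1751600 to 4479660). The 4 arms together had 71 to 4180 reads per library in Alg1E, 71 to 3984 in Alg1A and 111 to 3754 in N2. The earliest hours therefore carry the largest counting error, and the lowest count of miR-786-5p was 1 read in each genotype. Reads that fell on no annotated miRNA made up 49.5% ± 11.4 of an Alg1E library, 35.3% ± 9.64 of an Alg1A library and 37.2% ± 9.48 of an N2 library (SD, 13 libraries each), and their part in the results was not tested. The Alg1A libraries of 18 and 19 h stood apart from the others: muscle miR-1-3p was at 36473 and 17158 CPM (counts-per-million) there, against 68273 and 76412 CPM in the N2 libraries of the same hours. The fits that use these libraries were repeated without them, and the values are given where a member gained or lost a call or a called value turned, and beside some of the other results on Alg1A.

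miR-786-3p was the most abundant of the 4 arms. In Alg1E its lowest, median and highest levels over the 13 hours were 15.7, 273 and 921 CPM, in Alg1A 19.6, 416 and 1080 CPM, and in N2 25.7, 606 and 1494 CPM. The ranges overlapped because every genotype began low and ended high, but at matched hours Alg1E was below N2 at all 13 hours. By mean level, miR-786-3p ranked 107 of the 243 tested miRNAs in Alg1E, 82 in Alg1A and 69 in N2.

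miR-240-3p, the more abundant arm of the other hairpin over the 39 libraries together, ran at 3.01, 69.1 and 237 CPM in Alg1E (lowest, median and highest), at 7.02, 98.6 and 272 CPM in Alg1A, and at 4.17, 183 and 476 CPM in N2. At matched hours Alg1E was below N2 at 12 of 13 hours, the exception being 27 h, with 237 CPM in Alg1E and 212 CPM in N2. miR-240-3p was below miR-786-3p in all 39 libraries. The arms are 22 to 24 bases long, so these levels are nearly per length, although arms can differ in how well they are ligated and copied.

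The 5p arms ran the other way between Alg1E and N2. miR-240-5p had 2.41, 76.2 and 240 CPM in Alg1E, 1.87, 32.4 and 97.1 CPM in Alg1A, and 4.82, 37.3 and 120 CPM in N2 (lowest, median and highest). miR-786-5p, the rarest arm, had 0.301, 15.7 and 56.1 CPM in Alg1E, 0.234, 9.27 and 27.8 CPM in Alg1A, and 0.267, 9.54 and 29.7 CPM in N2. At matched hours Alg1E was above N2 at 11 of 13 hours for miR-240-5p and at 12 of 13 for miR-786-5p. From 20 h on, miR-240-5p was higher in Alg1E than in both other genotypes at every hour.

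**Figure D1:**
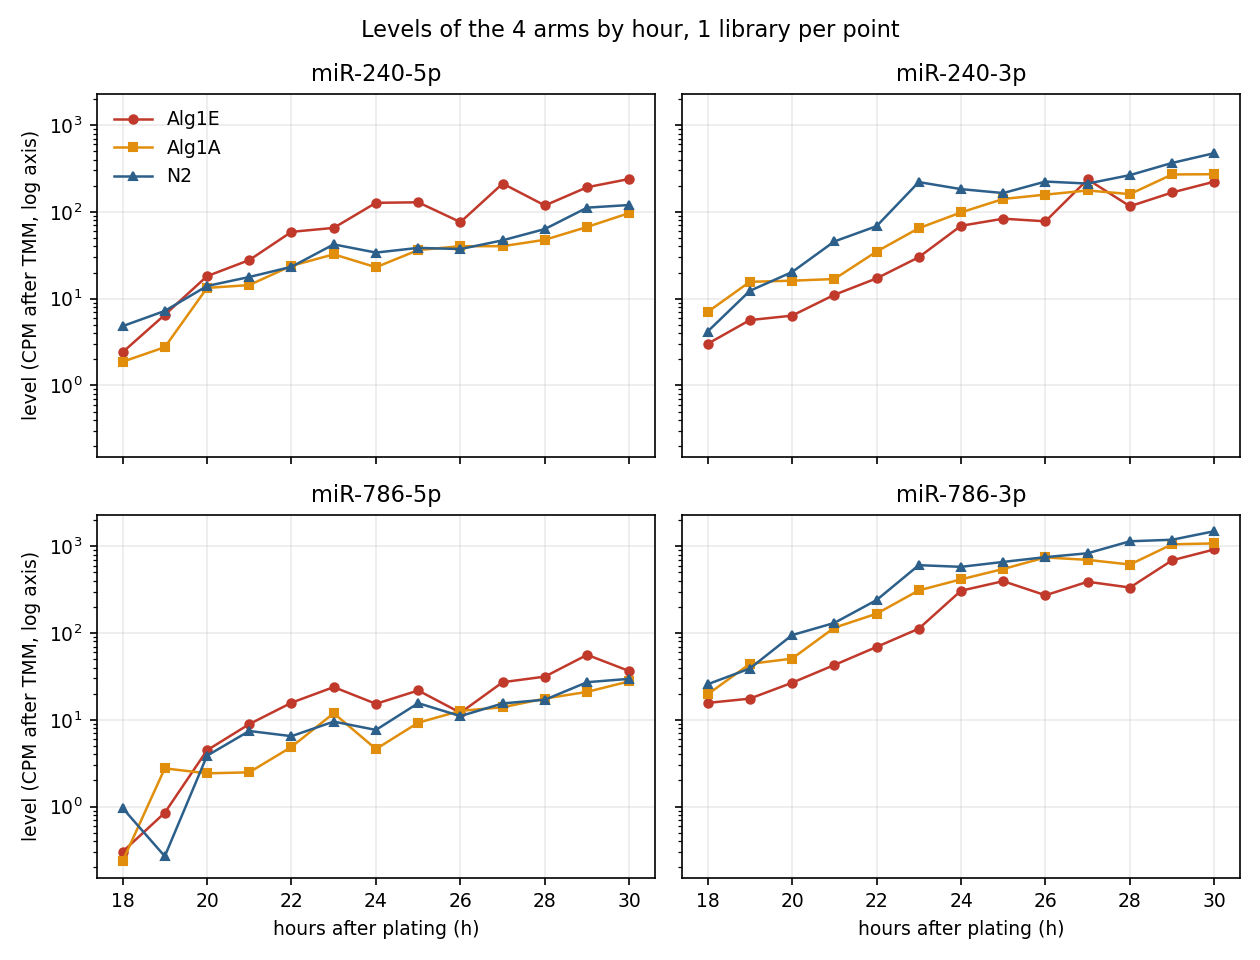
Levels of the 4 arms (CPM after TMM, log axis) against hours after plating, with 1 library per point and 1 line per genotype. All arms climb in every genotype; Alg1E lies below N2 for the 3p arms (all 13 hours for miR-786-3p, 12 of 13 for miR-240-3p) and above N2 for the 5p arms at 11 or 12 of 13 hours.

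The order of the arms differed between genotypes at 1 place, the 2 arms of miR-240. In Alg1E the 5p arm of miR-240 had more reads than the 3p arm in 10 of 13 libraries, by a geometric mean ratio of 1.47 (exact two-sided sign-flip p = 0.0149, also after adjustment over 6 tests). In Alg1A it was below the 3p arm in all 13 libraries (ratio 0.352, exact sign-flip adjusted p = 0.000366), and in N2 in 12 of 13 (ratio 0.320, exact sign-flip adjusted p = 0.000586). The 1 N2 library with more 5p reads was that of 18 h, which rests on 28 reads of both arms. The lead of miR-240-5p in Alg1E was uneven: its share of both arms averaged 68.6% at 21 to 25 h and 50.5% at 26 to 30 h. Pooled over the 13 Alg1E libraries, 5p reads of miR-240 were 112% of 3p reads. The sign-flip test takes the hours as independent, so its p-values can be too small where neighbouring hours are alike. For miR-786 the 3p arm stayed ahead in all 39 libraries, with a ratio of 5p to 3p of 0.0822 in Alg1E, 0.0254 in Alg1A and 0.0221 in N2. miR-786-5p was the lowest arm in 38 of 39 libraries and tied with miR-240-5p in the Alg1A library of 19 h.

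The comparison of each mutant with N2 asks whether the levels of the arms depend on the state of ALG-1. Over the 13 hours, both 3p arms were lower and both 5p arms were higher in Alg1E than in N2. The log2 difference was -1.34 for miR-240-3p (SE 0.179, edgeR adjusted p = 8.14e-08) and -1.30 for miR-786-3p (SE 0.132, edgeR adjusted p = 4.38e-10). It was 0.99 for miR-240-5p (SE 0.175, edgeR adjusted p = 9.23e-06) and 0.68 for miR-786-5p (SE 0.184, edgeR adjusted p = 0.00155). In levels, the 3p arms stood at 0.395-fold (miR-240-3p) and 0.407-fold (miR-786-3p) of N2 and the 5p arms at 1.98-fold (miR-240-5p) and 1.60-fold (miR-786-5p). Of the 243 miRNAs tested, 74.9% were called in this comparison, 36.2% as higher and 38.7% as lower, so that a call by itself does not set these arms apart.

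The scaling between libraries moves all Alg1E values together. With size factors (RLE) the median of all miRNAs shifted by -0.12, with total counts by 0.27, and with a scaling computed from the major arms alone by 0.44 (log2, Alg1E against N2). Under these 3 scalings miR-240-3p stayed between -1.45 and -0.91 and miR-786-3p between -1.41 and -0.86, while miR-240-5p ran from 0.87 to 1.42 and miR-786-5p from 0.56 to 1.10. All 4 directions and calls held. The hourly differences of neighbouring hours were correlated, at 0.29 for miR-240-3p, 0.50 for miR-240-5p, 0.14 for miR-786-3p and 0.15 for miR-786-5p (median of all miRNAs 0.38), and such correlation makes the p-values too small.

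Alg1A differed from N2 in the 3p arms by less. On the log2 scale miR-240-3p was lower, at -0.64 (SE 0.176, edgeR adjusted p = 0.0122) and at 11 of 13 hours, and miR-786-3p at -0.42 (SE 0.129, edgeR adjusted p = 0.0272) and at 12 of 13. The 5p arms did not pass the test, with -0.39 for miR-240-5p (95% interval -0.75 to -0.03, edgeR adjusted p = 0.158) and -0.29 for miR-786-5p (-0.68 to 0.10, edgeR adjusted p = 0.317). Of all 243 miRNAs, 10.7% were called between Alg1A and N2, and only 2.06% as lower, a total of 5 miRNAs of which 2 belong to this cluster. The other 3, named here after their values were seen, were miR-787-3p (-0.36, edgeR adjusted p = 0.00635), miR-1829a-3p (-0.47, edgeR adjusted p = 0.00537) and miR-1829c-3p (-0.60, edgeR adjusted p = 0.0449). The call of miR-786-3p is fragile: it was lost when any of 7 single libraries was left out (N2 at 20, 22 or 23 h, Alg1A at 23, 24, 28 or 30 h), and that of miR-240-3p was lost without the Alg1A library of 23 h. Without the Alg1A libraries of 18 and 19 h both calls held, at -0.80 for miR-240-3p (edgeR adjusted p = 0.00152) and -0.48 for miR-786-3p (edgeR adjusted p = 0.0120). The correlation of neighbouring hourly differences was 0.52 for miR-240-3p and 0.34 for miR-240-5p (median of all miRNAs 0.04). It was -0.27 for miR-786-3p and -0.25 for miR-786-5p. The p-value of miR-240-3p in Alg1A against N2 can therefore be too small.

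Set directly against each other, Alg1E and Alg1A differed in all 4 arms, against 78.2% of all miRNAs called. In Alg1E, miR-240-5p was higher by 1.37 (SE 0.177, edgeR adjusted p = 4.83e-08) and at all 13 hours, and miR-786-5p by 0.96 (SE 0.189, edgeR adjusted p = 3.95e-05) and at 11 hours. miR-786-3p was lower in Alg1E by -0.87 (SE 0.131, edgeR adjusted p = 8.05e-07) at all 13 hours. miR-240-3p was lower by -0.70 (SE 0.179, edgeR adjusted p = 0.000868) at 12 hours, and this call did not survive the scaling from the major arms, at -0.34 (edgeR adjusted p = 0.0730), or an estimated age in place of the hour, at -0.24 (edgeR adjusted p = 0.301). The 2 mutants thus stood on opposite sides of N2 for the 5p arms, although only the Alg1E side passed the test.

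**Figure D2:**
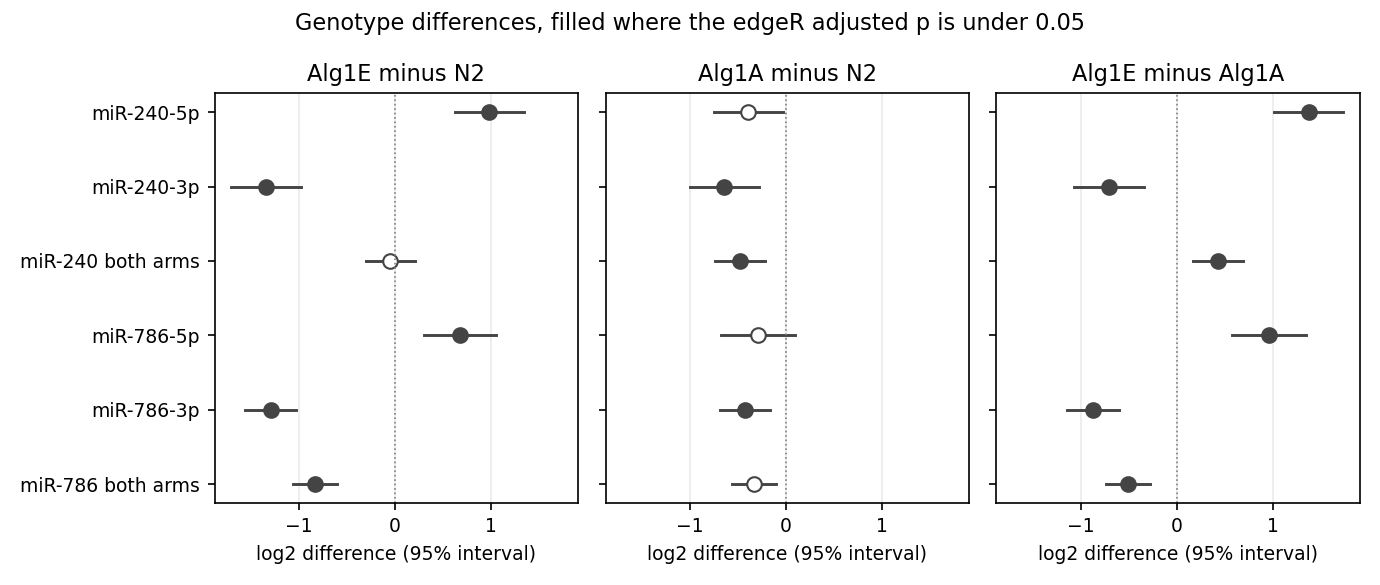
Log2 differences between genotypes for each arm and for the reads of both arms of a hairpin, with 95% intervals over 39 libraries; filled points have an edgeR adjusted p under 0.05. In Alg1E against N2 the arms of miR-240 lie on opposite sides of 0 (0.99 and -1.34) and their sum lies near 0 (-0.05), while the sum of miR-786 lies at -0.83. Arms and sums were scaled separately, so their values are not on 1 scale.

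The sum of both arms shows how much of each hairpin was recovered, whichever arm it ended in, and here the hairpins parted. The sums had their own TMM, so their CPM are not the arm CPM added together, and their differences are not on the scale of the arms. For miR-240 the sum averaged 204 ± 178 CPM in Alg1E, 136 ± 112 CPM in Alg1A and 197 ± 169 CPM in N2 (SD, n = 13 hours each, the SD being mostly the change with time). The difference of Alg1E from N2 was -0.05 (95% interval -0.30 to 0.21, edgeR adjusted p = 0.750), with Alg1E higher at 3 of 13 hours. Its sign depended on the scaling, at 0.02 when minor-arm reads were left out of the scaling, and it did not pass the test under any scaling run. The scaling of the arm levels was not among these. With total counts, nearly 1 scale for arms and sums, the sum was at -0.14 (edgeR adjusted p = 0.283), miR-240-3p at -1.07 and miR-240-5p at 1.25. In Alg1A the miR-240 sum was lower than in N2 by -0.48 (SE 0.125, edgeR adjusted p = 0.0172) at 12 of 13 hours, a call that was lost without the N2 library of 23 h or the Alg1E library of 29 h. In Alg1E it was higher than in Alg1A by 0.43 (SE 0.126, edgeR adjusted p = 0.00427).

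For miR-786 the sum averaged 340 ± 328 CPM in Alg1E, 436 ± 358 CPM in Alg1A and 555 ± 461 CPM in N2 (SD, n = 13 hours each). These CPM are on the scale of the sums and cannot be set beside the arm CPM. Alg1E was lower than N2 by -0.83 (SE 0.112, edgeR adjusted p = 2.91e-07) at all 13 hours, and lower than Alg1A by -0.50 (SE 0.112, edgeR adjusted p = 0.000305) at 12 of 13. Alg1A against N2 was at -0.33 (edgeR adjusted p = 0.104), and at -0.39 (edgeR adjusted p = 0.0331) without the Alg1A libraries of 18 and 19 h. Over 148 hairpin sums, 61.5% were called in Alg1E against N2, 4.05% in Alg1A against N2 and 60.1% in Alg1E against Alg1A. In whole-body RNA, fewer cells of a type and less RNA per cell cannot be told apart.

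Because both hairpins are counted in the same library, their ratio does not depend on scaling. Reads of miR-240 per read of miR-786 had a geometric mean of 0.627 in Alg1E (range 0.346 to 1.07), 0.336 in Alg1A (0.262 to 0.555) and 0.367 in N2 (0.284 to 0.498). The ratio was higher in Alg1E than in N2 at all 13 hours, though at 18 h the 2 values nearly met. On the log2 scale it was higher than in N2 by 0.77 ± 0.48 (SD over 13 hours, exact two-sided sign-flip p = 0.000244, adjusted over 12 tests 0.00293). Against Alg1A it was higher by 0.90 ± 0.55 (12 of 13 hours, exact sign-flip adjusted p = 0.00293), and Alg1A against N2 gave -0.13 ± 0.40 (exact sign-flip adjusted p = 0.446). The smallest p that 13 hours allow is 0.000244.

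The same ratio taken within 1 kind of arm moved less. For the 3p arms, miR-240 per miR-786 was 0.273 in Alg1E, 0.250 in Alg1A and 0.277 in N2, and the log2 difference of Alg1E from N2 was -0.02 ± 0.50 (exact sign-flip adjusted p = 0.896, higher at 5 of 13 hours). For the 5p arms it was 4.89 in Alg1E, 3.47 in Alg1A and 4.01 in N2, with a difference of Alg1E from N2 of 0.28 ± 0.79 (exact sign-flip adjusted p = 0.446) and from Alg1A of 0.50 ± 0.93 (exact sign-flip p = 0.0703, adjusted 0.281). No difference in these within-arm ratios passed the test in any of the 3 comparisons. In every genotype the 5p arm was thus a far larger part of miR-240 than of miR-786. A ratio of sums weighs each arm by its share, so it can differ without any change within 1 kind of arm. The difference of 0.77 in the ratio of sums, Alg1E against N2, was not tested apart from the arm balance.

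**Figure D3:**
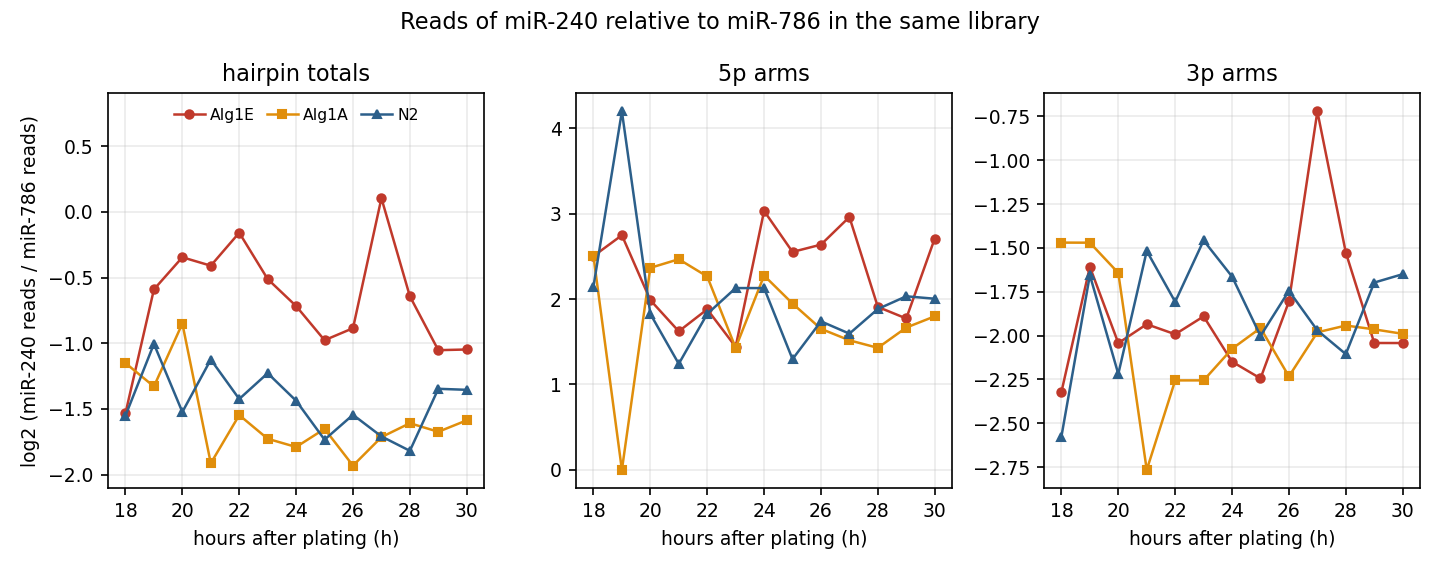
Log2 ratio of miR-240 reads to miR-786 reads in the same library, against hours after plating, for the sums of both arms, for the 5p arms and for the 3p arms (each panel has its own vertical scale). For the sums, Alg1E lies above N2 at all 13 hours (mean difference 0.77); for the 3p arms the lines cross (mean difference -0.02).

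The share of the 5p arm in a hairpin's reads puts the balance of the arms in 1 number. For miR-240 it averaged 59.0% ± 11.1 in Alg1E (range 44.4% to 77.5%), 26.8% ± 10.8 in Alg1A (15% to 46.0%) and 25.4% ± 11.7 in N2 (14.3% to 53.6%; n = 13 libraries per genotype, with the SD). For miR-786 it averaged 8.82% ± 5.91 in Alg1E (1.89% to 18.5%), 2.61% ± 1.38 in Alg1A (1.09% to 5.88%) and 2.33% ± 1.29 in N2 (0.680% to 5.38%). From 19 h on, the share was higher in Alg1E than in N2 at every hour for both hairpins. Only the library of 18 h went the other way, on 18 reads of miR-240 in Alg1E and 28 in N2.

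The log2 ratio of the 5p to the 3p arm was higher in Alg1E than in N2 by 2.20 for miR-240 (SE 0.238, limma adjusted p = 8.17e-10, 4.60-fold) and by 1.9 for miR-786 (SE 0.276, limma adjusted p = 2.33e-07, 3.72-fold), each at 12 of 13 hours. Against Alg1A the differences were 2.06 for miR-240 (limma adjusted p = 3.90e-09, 13 of 13 hours) and 1.70 for miR-786 (limma adjusted p = 1.78e-06, 12 of 13 hours). Alg1A did not differ detectably from N2, at 0.14 for miR-240 (95% interval -0.35 to 0.63, limma adjusted p = 0.635) and 0.20 for miR-786 (-0.36 to 0.76, limma adjusted p = 0.569).

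These changes were of the common size. Among 94 hairpins with enough reads in both arms, the minor-to-major ratio passed the test in 88.3% in Alg1E against N2 (86.2% as higher), in 21.3% in Alg1A against N2 and in 86.2% in Alg1E against Alg1A. The median change over the 94 hairpins was 2.05 in Alg1E against N2 and 0.28 in Alg1A against N2, and miR-240 ranked 42 and miR-786 ranked 51 from the top in the first of these. Counted by arm over all miRNAs tested, 73 of 96 minor arms were higher and 4 lower in Alg1E than in N2 (median 1.66), and 5 of 96 major arms were higher and 65 lower (median -0.48), against a median of 0.01 over all 243.

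**Figure D4:**
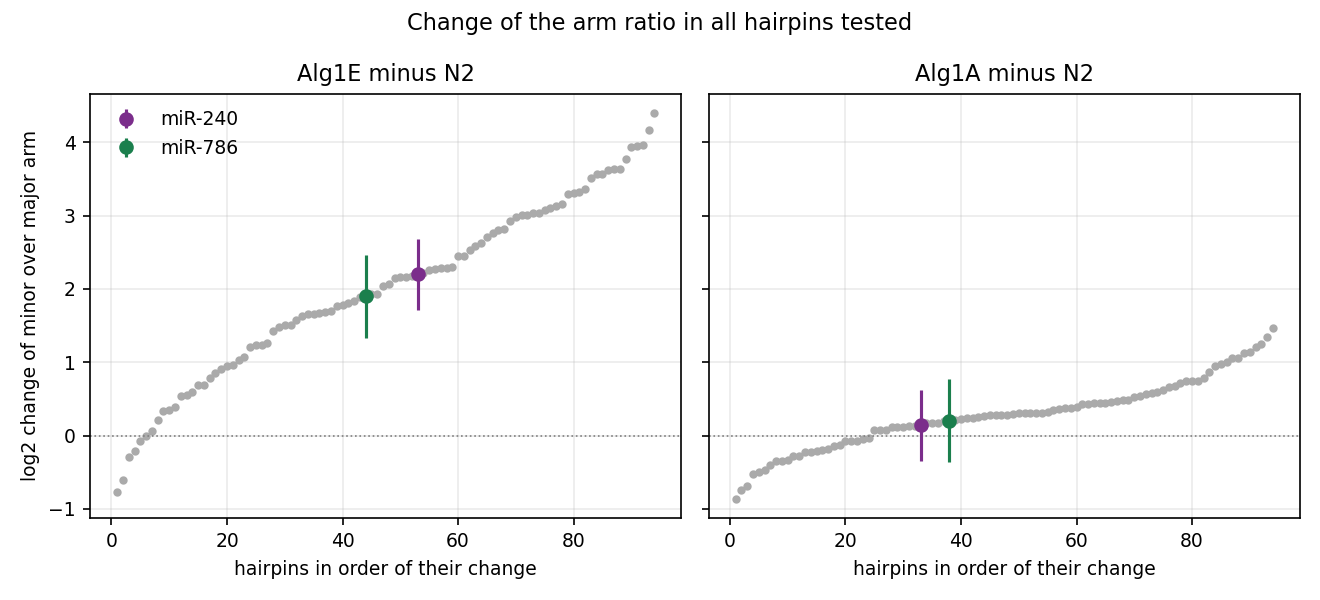
Change of the log2 ratio (minor arm over major arm) in 94 hairpins, ordered from lowest to highest, for Alg1E minus N2 and Alg1A minus N2; bars are 95% intervals for the 2 hairpins of the cluster. Both hairpins sit in the middle of the order in Alg1E (2.20 for miR-240 and 1.9 for miR-786, with a median of 2.05) and near 0 in Alg1A.

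The 5p share of miR-240 did not stay constant over the hours. In Alg1E it was 57.3% ± 15.2 at 18 to 20 h (SD, n = 3), 68.6% ± 6.41 at 21 to 25 h (n = 5) and 50.5% ± 2.35 at 26 to 30 h (n = 5). It peaked at 77.5% at 22 h (95% Wilson interval 68.9% to 84.3% on 111 reads). In Alg1A the 3 windows averaged 27.1% ± 16, 31.9% ± 12 and 21.6% ± 3.08, and in N2 43.8% ± 8.68, 20.8% ± 5.61 and 19.1% ± 3.30 (SD, same n). The N2 share was thus highest in the first window and similar in the other two, whereas in Alg1E the first and last windows lay below the middle one.

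The change of the miR-240 arm ratio with time passed the test in all 3 genotypes (limma adjusted p = 0.000728 in Alg1E, 0.00210 in Alg1A and 4.23e-05 in N2). With a stiffer curve of 2 degrees of freedom it turned and did not pass in Alg1E (-0.78, limma adjusted p = 0.180) or in Alg1A (-0.77, limma adjusted p = 0.416). Of the 94 hairpins, 31.9% were called in Alg1E, 34.0% in Alg1A and 4.26% in N2. The fitted log2 change between 18 and 30 h was -1.9 in N2. In the mutants the fitted end-to-end change was small beside the hump between, at 0.54 in Alg1E and 0.66 in Alg1A. The Alg1A value turned to -1.80 without the libraries of 18 and 19 h (limma adjusted p = 1.35e-05), and 1 of them alone could bring it to 1.03 (without 18 h) or 0.17 (without 19 h). That of Alg1E was 0.85 without its library of 30 h. The course differed between Alg1E and N2 (limma adjusted p = 8.32e-05, 35.1% of hairpins called). Between Alg1A and N2 it also passed (limma adjusted p = 0.00189, 2.13% called), but not without the Alg1A libraries of 18 and 19 h (limma adjusted p = 0.850) or without the N2 library of 18 h. Between Alg1E and Alg1A it did not pass (limma adjusted p = 0.572), but did without those 2 Alg1A libraries (limma adjusted p = 0.0426).

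For miR-786 the 5p share in Alg1E averaged 6.93% ± 6.52 at 18 to 20 h, 12.6% ± 7.03 at 21 to 25 h and 6.13% ± 2.07 at 26 to 30 h (SD, n = 3, 5 and 5). It lay between 14.3% and 18.5% at 20 to 23 h and fell to 4.73% at 24 h. The change with time passed the test in Alg1E (limma adjusted p = 0.0157), with a fitted change of 1.14 that became 0.68 without the library of 18 h and 2.90 without that of 30 h, and the call was lost without the library of 22 h. With 2 degrees of freedom the change turned to -0.62 and did not pass (limma adjusted p = 0.315). In Alg1A (limma adjusted p = 0.338) and N2 (limma adjusted p = 0.565) it did not pass. The courses were not shown to differ between Alg1E and N2 (limma adjusted p = 0.160) or between Alg1E and Alg1A (limma adjusted p = 0.124). These outcomes were fragile too. The first changed sides without the N2 library of 19 h and the second without the Alg1A library of 18 h, each with 1 read of miR-786-5p. The peak therefore cannot be called particular to Alg1E.

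**Figure D5:**
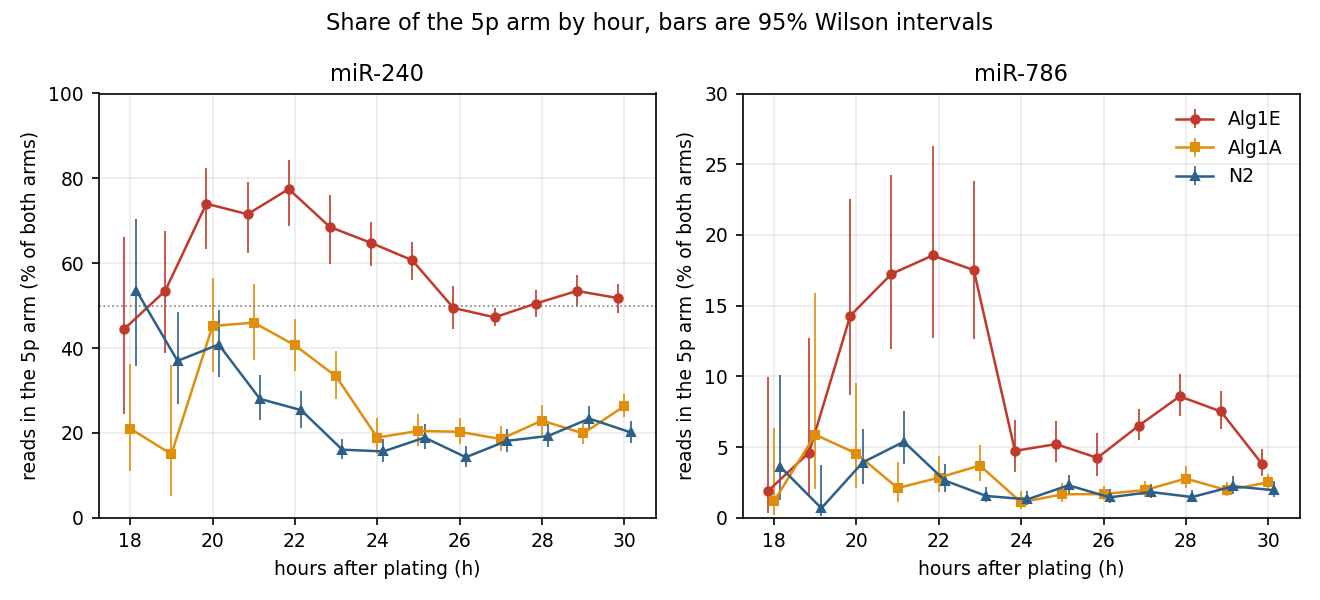
Share of the 5p arm in the reads of each hairpin (% of both arms, linear axes with different upper limits) against hours after plating; points are single libraries and bars are 95% Wilson intervals, which cover counting error only. In miR-240 the Alg1E share peaks at 77.5% at 22 h and ends near 50%, and the N2 share lies between 14.3% and 28.0% from 21 h on.

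All 4 arms rose steeply with age in every genotype. The fitted log2 rise between 18 and 30 h in Alg1E was 5.94 for miR-240-3p, 6.41 for miR-240-5p, 5.94 for miR-786-3p and 7.10 for miR-786-5p. In Alg1A it was 5.08 for miR-240-3p, 5.46 for miR-240-5p, 5.68 for miR-786-3p and 5.62 for miR-786-5p, and in N2 6.83 for miR-240-3p, 4.90 for miR-240-5p, 6.03 for miR-786-3p and 5.45 for miR-786-5p. The largest edgeR adjusted p of the 12 was 3.60e-08, for miR-786-5p in N2. In either direction 44.4% of the 243 miRNAs were called in Alg1E, 44.9% in Alg1A and 27.6% in N2. As rising, 22.2% of the 243 miRNAs were called in Alg1E, 24.7% in Alg1A and 13.2% in N2, and the 4 arms ranked between 4 and 15 from the top in all genotypes. The rises of miR-786-5p start from 1 to 3 reads at 18 and 19 h in every genotype and are the least exact. Without the Alg1A libraries of 18 and 19 h, and with the curve extended back to 18 h, the rise in Alg1A was 5.86 for miR-240-3p, 4.04 for miR-240-5p, 6.52 for miR-786-3p and 5.49 for miR-786-5p, and all 4 passed (largest edgeR adjusted p = 1.52e-05).

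The time at which the fitted log2 curve crossed the middle of its rise describes the timing of each arm; it carries no test. For miR-240-3p it was 22.5 h in Alg1E (22.3 to 22.8 h when single libraries were left out), 22.4 h in Alg1A (22.1 to 22.6 h) and 20.7 h in N2 (20.5 to 21.0 h). For miR-786-3p it was 22.3 h in Alg1E (21.7 to 22.8 h), 21.5 h in Alg1A (21.4 to 21.6 h) and 21.1 h in N2 (20.9 to 21.4 h). Both 3p arms were thus latest in Alg1E, but for miR-240-3p the ranges of Alg1E and Alg1A overlapped. For miR-786-3p those of Alg1A and N2 overlapped slightly. The 5p arms were earliest in Alg1E. With the same ranges, miR-240-5p crossed at 20.6 h in Alg1E (20.5 to 20.7 h), 20.8 h in Alg1A (20.6 to 20.9 h) and 21.6 h in N2 (21.3 to 22.1 h). miR-786-5p crossed at 20.3 h in Alg1E (20.2 to 20.5 h), 21.2 h in Alg1A (20.9 to 22.2 h) and 20.8 h in N2 (20.7 to 21.3 h). The ranges of Alg1E and Alg1A overlapped for miR-240-5p, and those of Alg1A and N2 for miR-786-5p, whose curve starts from very few reads. The Alg1A times depend on its first 2 libraries: without them they were 21.9 h for miR-240-3p, 22.2 h for miR-240-5p, 21.1 h for miR-786-3p and 21.5 h for miR-786-5p, so that miR-240-5p became the latest in Alg1A.

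The shape over time differed between Alg1E and N2 for both arms of miR-240, with edgeR adjusted p = 0.0106 for miR-240-3p and 0.00285 for miR-240-5p, beside 35.4% of all miRNAs called. The fitted rise in Alg1E was smaller than in N2 by -0.90 for miR-240-3p (-1.37 without the Alg1E library of 30 h) and larger by 1.51 for miR-240-5p. Both calls were lost with a stiffer curve of 2 degrees of freedom. There the value of miR-240-3p turned to 0.65 (edgeR adjusted p = 0.303), while that of miR-240-5p was 1.54 (edgeR adjusted p = 0.0619). For miR-786-3p (edgeR adjusted p = 0.206) and miR-786-5p (edgeR adjusted p = 0.568) no difference in shape was detected. Between Alg1A and N2 none of the 4 arms passed, with miR-240-3p closest at -1.76 (edgeR adjusted p = 0.103), beside 2.47% of miRNAs called. Without the Alg1A libraries of 18 and 19 h that value was -1.03 (edgeR adjusted p = 0.696), and miR-240-5p turned to -0.91 (edgeR adjusted p = 0.974) where it had been at 0.57 (edgeR adjusted p = 0.701). Between Alg1E and Alg1A none passed either, with miR-240-5p closest at 0.94 (edgeR adjusted p = 0.0668), beside 28.4% called. Without those 2 libraries it was 2.27 (edgeR adjusted p = 0.0535).

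Window by window, the 3p arms were lower in Alg1E than in N2 throughout, and the 5p arms were called only later. At 18 to 20 h the log2 difference was -1.17 for miR-240-3p (edgeR adjusted p = 0.00541) and -1.25 for miR-786-3p (edgeR adjusted p = 0.000741), but -0.15 for miR-240-5p (edgeR adjusted p = 0.773) and 0.10 for miR-786-5p (edgeR adjusted p = 0.878), with 59.3% of miRNAs called. At 21 to 25 h all 4 passed beside 69.5% of miRNAs, at -1.86 for miR-240-3p, 1.29 for miR-240-5p, -1.47 for miR-786-3p and 0.84 for miR-786-5p. At 26 to 30 h all 4 passed beside 66.7%, at -0.93 for miR-240-3p, 1.19 for miR-240-5p, -1.15 for miR-786-3p and 0.67 for miR-786-5p. The early value of miR-240-3p fell short of the threshold with the scaling from the major arms (-0.66, edgeR adjusted p = 0.0909). Whether the windows differ from each other was not tested apart from the shapes over time.

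Between Alg1E and Alg1A, the 3p arms were lower in Alg1E at 18 to 20 h, at -1.35 for miR-240-3p (edgeR adjusted p = 0.00202) and -0.85 for miR-786-3p (edgeR adjusted p = 0.0170), beside 56.4% of miRNAs called. The 5p arms were then at 0.58 for miR-240-5p (edgeR adjusted p = 0.194) and 0.25 for miR-786-5p (edgeR adjusted p = 0.773). These early values depended on the scaling: miR-240-5p was called with total counts (0.87, edgeR adjusted p = 0.0442) and with the scaling from the major arms (1.03, edgeR adjusted p = 0.0156), and miR-786-3p with neither (-0.52 and -0.39). Without the Alg1A libraries of 18 and 19 h, which leaves Alg1A 1 library in this window whose spread is taken from the other libraries, neither miR-240-3p (-0.95, edgeR adjusted p = 0.168) nor miR-786-3p (-0.51, edgeR adjusted p = 0.418) passed. At 21 to 25 h all 4 arms passed beside 64.2%, at -0.77 for miR-240-3p, 1.54 for miR-240-5p, -0.97 for miR-786-3p and 1.43 for miR-786-5p. At 26 to 30 h, beside 68.7%, miR-240-3p did not pass (-0.37, edgeR adjusted p = 0.138; -0.50 with edgeR adjusted p = 0.0483 without those 2 Alg1A libraries), while miR-240-5p (1.51), miR-786-3p (-0.79) and miR-786-5p (0.74) did. The call of miR-240-3p at 21 to 25 h was lost with the scaling from the major arms.

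In mean levels at 21 to 25 h, miR-240-3p stood at 42.2 ± 32.3 CPM in Alg1E, 71.2 ± 49.8 CPM in Alg1A and 136 ± 75.7 CPM in N2 (SD, n = 5 hours). miR-240-5p stood at 81.6 ± 44.7 CPM in Alg1E, 26.0 ± 8.61 CPM in Alg1A and 31.1 ± 10.3 CPM in N2. This was also the 1 window in which an arm was called between Alg1A and N2: miR-240-3p at -1.09 (edgeR adjusted p = 0.00244), beside 6.17% of miRNAs. No other arm passed in Alg1A against N2 in any window, beside 2.88% called at 18 to 20 h and 2.88% at 26 to 30 h, and the same held without the Alg1A libraries of 18 and 19 h, with miR-240-3p then at -1.17 at 21 to 25 h (edgeR adjusted p = 0.00136). At 18 to 20 h miR-240-3p was at 0.18 with these libraries and at -0.19 without them, miR-240-5p at -0.74 and -0.41, miR-786-3p at -0.40 and -0.71, and miR-786-5p at -0.14 and -0.76.

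Libraries of equal hour need not be of equal developmental age. The libraries were placed on the N2 time course by 17 other miRNAs, all major arms, that changed with time in N2. Alg1E libraries were placed 1.74 ± 1.22 h below their nominal hour, Alg1A libraries 0.60 ± 0.55 h below and N2 libraries 0.09 ± 0.64 h below (13 libraries each, with the SD). In Alg1E the age minus the hour was not constant, at 0.7 h at 18 h, -3.3 h at 26 h and -2.6 h at 30 h. No library could be placed before 18 h or after 30 h. With the estimated age in place of the hour, the 3p arms in Alg1E against N2 were at -0.69 for miR-240-3p (edgeR adjusted p = 0.00304) and -0.67 for miR-786-3p (edgeR adjusted p = 0.00134). The 5p arms were then at 1.58 for miR-240-5p (edgeR adjusted p = 6.55e-07) and 1.26 for miR-786-5p (edgeR adjusted p = 5.48e-05). All 4 calls held, with smaller differences for the 3p arms and larger ones for the 5p arms. In Alg1A against N2 neither 3p arm was called with the estimated age, at -0.45 for miR-240-3p (edgeR adjusted p = 0.128) and -0.19 for miR-786-3p (edgeR adjusted p = 0.493). The placement uses miRNAs of the same libraries, so a change of those miRNAs in a mutant moves the age as well. Of 96 major arms tested, 65 were called lower in Alg1E than in N2.

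The 2 more abundant arms followed each other closely. Over the 39 libraries the log2 levels of miR-240-3p and miR-786-3p had a Pearson correlation of 0.98, with 0.98 within Alg1E, 0.98 within Alg1A and 0.99 within N2. Among 205 other miRNAs of at least 10 CPM, the 3 with the most similar pattern were the same for both: let-7-5p, the heterochronic miRNA of late larval development (0.96 with miR-240-3p and 0.96 with miR-786-3p), miR-85-3p (0.95 and 0.95) and miR-85-5p (0.85 and 0.86). These correlations share the libraries and the common rise with age and are given as a description. In Alg1E against N2, let-7-5p was at -0.98 (edgeR adjusted p = 0.00144), miR-85-3p at -1.36 (edgeR adjusted p = 3.09e-06) and miR-85-5p at -0.64 (edgeR adjusted p = 0.05004, just above the threshold). None of the 3 passed in Alg1A against N2, where let-7-5p was at -0.50 (edgeR adjusted p = 0.206).

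miRNAs of the tissues in which the cluster is known to act give a setting for these values. Of 3 miRNAs of the somatic gonad, miR-246-3p, found in the gonadal sheath, was lower in Alg1E than in N2 by -1.32 (edgeR adjusted p = 7.82e-07), while miR-34-5p (-0.07, edgeR adjusted p = 0.428) and miR-83-3p (0.23, edgeR adjusted p = 0.0574) did not pass. The intestinal miR-60-3p was lower in Alg1E by -0.71 (edgeR adjusted p = 0.00100) and in Alg1A stood at -0.43 (edgeR adjusted p = 0.146). None of the 3 gonad miRNAs passed in Alg1A against N2. The summed level of the gonad list ran from 1578 to 2142 CPM in Alg1E, 1219 to 2334 CPM in Alg1A and 1479 to 2186 CPM in N2. This sum was mostly miR-34-5p (mean 881 CPM in Alg1E and 916 CPM in N2) and miR-83-3p (918 and 775 CPM). miR-246-3p added a mean of 42.1 CPM in Alg1E, 99.0 CPM in Alg1A and 121 CPM in N2, so the sum hardly shows its difference. The level of miR-60-3p ran from 8050 to 29841 CPM in Alg1E, 5239 to 38005 CPM in Alg1A and 20573 to 35985 CPM in N2. The part of tissue composition in the cluster's differences was not tested.

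Other lists held called members in Alg1E as well, beside 38.7% of all 243 miRNAs and 65 of 96 major arms called lower than in N2. All 6 heterochronic miRNAs tested (lin-4-5p, let-7-5p, miR-48-5p, miR-84-5p, miR-241-5p and miR-237-5p, which time larval cell fates) were lower than in N2, with a median of -0.51, and none passed in Alg1A. Of the 8 miRNAs of the mir-35 to mir-42 family, known from embryo and germ line, 5 were lower and none higher in Alg1E (median -0.43), and none passed in Alg1A. Among 3 neuronal miRNAs, lsy-6-3p (0.50, edgeR adjusted p = 0.000141) and miR-791-3p (0.52, edgeR adjusted p = 0.0356) were higher and miR-124-3p (-0.44, edgeR adjusted p = 0.0444) was lower in Alg1E, and muscle miR-1-3p was at 0.33 (edgeR adjusted p = 0.0569). No marker of these lists was at 0 in any library. The nearest other tested miRNAs on chromosome X were miR-784-5p, 192081 bases after the cluster, at -1.04 in Alg1E (edgeR adjusted p = 3.95e-05) and 0.30 in Alg1A (edgeR adjusted p = 0.266), and miR-1022-5p, 1447109 bases before it, at -0.57 in Alg1E (edgeR adjusted p = 0.00343) and -0.03 in Alg1A (edgeR adjusted p = 0.904).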

How the data were processed

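The authors deposited raw counts, in whole numbers and not normalized, for each mature miRNA in 39 libraries of the QIAseq miRNA kit. The submitters' processing notes name build ce11 and the tools cutadapt 2.3, Bowtie 1.2.2, HTSeq and SAMtools 1.9. The sources used here give neither settings, strand nor how molecular identifiers were treated. Without collapsing, PCR copies count as reads. The Wilson intervals of the arm shares cover counting error only, while the intervals of differences and arm ratios rest on scatter between libraries. HTSeq's 5 summary entries entered no library size and no test.

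edgeR 4.0.16 (R 4.3.3) tested counts with its quasi-likelihood test after TMM and filterByExpr (243 miRNAs), with genotype plus hour as a factor over all libraries. Levels are CPM after TMM. Change with time used a natural spline with 3 degrees of freedom, and differences in shape its interaction with genotype. Hairpin sums (148) had their own TMM and filter. limma 3.58.1 tested log2 arm ratios (prior count 0.5) in the 94 hairpins whose arms both averaged 10 reads or more, the minor arm being the one with fewer reads over all libraries. P-values were two-sided, Benjamini-Hochberg adjusted over all features tested, with a threshold of 0.05. Ratios between the hairpins, the order of the arms and the arm ratio over time were tested after the data were seen, the first 2 by exact sign-flip tests over 13 hours. Coordinates come from the Ensembl annotation of WBcel235. Scripts were tested on simulated data. Alternatives were DESeq2 1.42.0, other scalings, filters, splines, prior counts, left-out libraries and an estimated age. The members and lists were chosen with earlier results of these data known. The text names the 4 arms, the 3 miRNAs of at least 10 CPM most correlated with each more abundant arm, the list members and the nearest miRNAs.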

Additional observations from a re-analysis of the deposited data

Results flagged for a closer look

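Differences in the course over time between 2 genotypes, by a test of the interaction itself, drew attention to 4 results, all of miR-240. In Alg1E against N2 the level of miR-240-3p (edgeR adjusted p = 0.0106) and that of miR-240-5p (edgeR adjusted p = 0.00285) followed different courses, beside 35.4% of miRNAs called. The arm ratio of miR-240 did so in Alg1E against N2 (limma adjusted p = 8.32e-05) and in Alg1A against N2 (limma adjusted p = 0.00189). The last of these rested on the first 2 Alg1A libraries, without which the limma adjusted p was 0.850. The rule used to search for single outlying samples was not applied to groups of 13 hourly libraries, so it does not show whether any library was outlying.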

How the results depend on the processing

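Every arm ratio between genotypes (6 results), every rise with time (12) and every ratio between the hairpins (12) kept its direction where called and its side of the threshold under all alternatives run, and so did the 4 arms in Alg1E against N2. Calls of Alg1A against N2 depended on the processing. miR-786-3p was at -0.33 with total counts, -0.36 with the scaling from major arms, -0.41 without a filter and -0.19 with estimated age, none of them called, and miR-240-3p at -0.45 with estimated age, not called. miR-240-5p was called at -0.35 when only the 2 genotypes were fitted. The number of miRNAs called, 26, became 51 with only the 2 genotypes, 63 without the Alg1A libraries of 18 and 19 h and 48 at 20 to 30 h. In Alg1E against Alg1A, miR-240-3p was not called at -0.34 with the scaling from major arms or at -0.24 with estimated age. The miR-786 sum in Alg1A against N2 was called at -0.39 without the Alg1A libraries of 18 and 19 h.

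For courses over time in Alg1E against N2, a spline of 2 degrees of freedom gave 0.65 for miR-240-3p and 1.54 for miR-240-5p, not called, and 4 degrees gave -0.12 for miR-786-3p, called. For arm ratios over time, 2 degrees of freedom turned the change to -0.77 (miR-240, Alg1A), -0.78 (miR-240, Alg1E) and -0.62 (miR-786, Alg1E) and gave 1.09 for the miR-240 course of Alg1A against N2, none called. Without the Alg1A libraries of 18 and 19 h, miR-240 over time in Alg1A was at -1.80, its course at 0.10 against N2 (not called) and at 2.34 for Alg1E against Alg1A (called). The cause of these changes was not tested.

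With single libraries left out, results of Alg1A against N2 that changed sides ran from -0.71 to -0.51 (miR-240-3p), -0.48 to -0.35 (miR-786-3p), -0.59 to -0.41 (miR-240 sum), -0.44 to -0.28 (miR-786 sum), -1.99 to -1.52 (miR-240-3p course) and 2.07 to 2.93 (miR-240 arm ratio course). The miR-240-5p course of Alg1E against Alg1A ran from 0.68 to 1.23. For the miR-786 arm ratio, the change in Alg1E ran from 0.68 to 2.90, its course against N2 from 0.26 to 3.21 and against Alg1A from 0.74 to 3.08. The labels number no replicates, and genotypes were matched by hour. With the hour as a spline in place of this match (no replicate block), none of the 12 arm differences and 6 arm ratios changed sides, and 184 miRNAs in place of 182 (Alg1E against N2), 32 in place of 26 (Alg1A against N2) and 190 in both (Alg1E against Alg1A) were called. Depth limits the first hours most, where miR-786-5p rests on 1 to 3 reads in several libraries.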
